A study of Homo sapiens with 16 samples.

Results

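Replication-dependent histone genes encode the bulk of the histones that package newly copied DNA, and they were read here by histone type in transfected and untransfected HEK293 cells. Members were the genes whose whole symbol is H2AC, H2BC, H3C or H4C followed by digits, or H1-1 to H1-5. The rule gave 68 of the 60671 genes in the count table: 5 H1, 17 H2A, 18 H2B, 13 H3 and 15 H4 genes. HEK293 is a long-established human cell line derived from embryonic kidney. The 16 libraries were RNA-seq, 2 for each of 8 groups: untransfected parental cells, cells given the empty pcDNA3.0 plasmid, and cells given pcDNA3.0 with 1 of 6 cloned transcripts of the testis long non-coding RNA LINC01016 (T1, T2, CU1, CU2, CU1ENC, CU1ENU). Plasmid went in with a lipid reagent and RNA was taken 48 hours later, so the transfected cells are an unselected mixture in which the share of plasmid-bearing cells is not known. All groups share the HEK293 background. The labels give parental cells no plasmid or time, and whether they were given the reagent alone is not stated.

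Nucleosomes hold pairs of the core histones H2A, H2B, H3 and H4 wrapped by DNA, and the linker histone H1 sits where the DNA enters and leaves. The replication-dependent genes are switched on when cells enter S phase, and most of their messages end in a short hairpin, the stem-loop, in place of a poly(A) tail. SLBP binds that hairpin, and the U7 small nuclear ribonucleoprotein guides the cut after it. Some of the same genes also give longer, polyadenylated messages, mainly in cells that have left the cycle. Replacement histones such as H3-3A are made outside S phase from ordinary polyadenylated messages.

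The stem-loop is shown first because it defines these messages. In GENCODE 29 transcripts, 23 of the 66 members with a transcript held 1 of 4 exact stem-loop cores of 16 bases, and these 23 were among 28 of all 58676 genes with such a match (0.0477%). The 16 capitals mark the core, with 5 bases on each side.
H2AC6: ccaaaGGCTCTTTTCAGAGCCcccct
H2AC11: ccaacGGCTCTTTTCAGGGCCaccca
H2BC8: tcaaaGGCTCTTTTCAGAGCCactca
H2BC26: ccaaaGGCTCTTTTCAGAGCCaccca
H3C10: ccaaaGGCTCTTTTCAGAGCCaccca
H4C5: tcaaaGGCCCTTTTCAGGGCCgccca
H4C8: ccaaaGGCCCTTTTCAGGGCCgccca
One core served 6 H2A, 8 H2B and 3 H3 genes, all 5 H4 matches shared a second core, and H2AC11 carried another. The transcript models run on past the hairpin by 6 to 1917 bases, and in 16 of the 23 by more than 100 bases. Only these exact cores were searched, and a missing match says that their letters are not in the transcript model.

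Promoters of 3 members are shown: H2BC8 and H2BC26, which both rose in the results below, and H1-2, which fell. All are the 250 bases before the RefSeq start on GRCh38.p14, written along the gene's own strand. Capitals mark 4 motifs searched on both strands: the octamer ATTTGCAT, the CCAAT box, the TATA letters TATAAA and the H1 box AAACACA, whose letters do not have to be separate from one another.
H2BC8 (chr6:26216689-26216938, minus strand): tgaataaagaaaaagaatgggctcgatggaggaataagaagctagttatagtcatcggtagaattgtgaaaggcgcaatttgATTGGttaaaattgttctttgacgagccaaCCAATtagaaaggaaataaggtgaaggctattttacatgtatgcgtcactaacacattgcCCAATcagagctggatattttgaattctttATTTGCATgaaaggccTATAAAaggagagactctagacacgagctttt
H2BC26 (chr1:228457853-228458102, plus strand): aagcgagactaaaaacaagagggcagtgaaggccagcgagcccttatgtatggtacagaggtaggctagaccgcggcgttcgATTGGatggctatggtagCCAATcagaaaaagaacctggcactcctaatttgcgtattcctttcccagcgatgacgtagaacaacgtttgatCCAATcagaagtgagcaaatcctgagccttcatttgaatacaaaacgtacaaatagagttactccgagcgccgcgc
H1-2 (chr6:26056471-26056720, minus strand): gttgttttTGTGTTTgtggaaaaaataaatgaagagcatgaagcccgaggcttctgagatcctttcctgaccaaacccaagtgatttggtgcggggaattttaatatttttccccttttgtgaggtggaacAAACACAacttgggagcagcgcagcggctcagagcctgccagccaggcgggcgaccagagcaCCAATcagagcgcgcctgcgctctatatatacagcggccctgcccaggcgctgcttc
The octamer stood in 14 of 18 H2B promoters (77.8%) and 11 of 16 H2A promoters, against 1.66% of 27305 RefSeq promoters of that length. It was in 1 of 11 H3 promoters, that of H3C4, whose RefSeq window is the same as that of H2AC7, and in 0 of the 5 H1 and 13 H4 promoters. CCAAT was in 53 of 63 member promoters (84.1%) against 33.0% of all, and the H4 genes stood apart with 3 of 13. TATAAA was in 42 of 63 against 11.1% of all. The H1 box was in 5 of 5 H1 promoters against 4.95% of all. These matches describe the sequence and are no measure of binding.

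Of the 68 members, 54 lie in the chromosome 6 cluster (25726063 to 27893891, GRCh38), 11 in a cluster on chromosome 1q21, 2 on chromosome 1q42 and H4C16 on chromosome 12. Library totals ran from 15040770 to 17255935 counts. LINC01016 itself had 0 or 1 counts in the 4 parental and empty vector libraries and 40405 to 192244 counts in the 12 libraries of its transcripts. All 8 HEK293 markers had a median above 1 CPM (counts scaled to a library of 1000000), led by CDH2 at 217. Of the markers of other cells, 3 of 7 fibroblast genes (COL1A1 at 43.8), 1 of 6 leukocyte genes (CD14 at 2.80) and 0 of 5 endothelial genes did. The leukocyte markers summed to 1.72 and 1.89 CPM in parental cells and 2.41 to 4.87 in transfected cells, and the fibroblast markers to 58.2 and 58.8 against 43.9 to 56.6. The endothelial markers summed to 3.11 and 3.61 against 1.26 to 3.23, and the HEK293 markers to 581 and 622 against 562 to 658. No marker was at 0 in every library, and the part of these differences in the results was not tested. In bulk RNA a change in the share of cells in S phase and a change in message per cell cannot be told apart.

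Most of the histone signal came from a few genes, and many members were too low to measure. After the low-count filter, which asks for about 10 counts in at least 2 libraries of any group, 39 members were tested and 29 were not. The 29 had 0 to 93 counts over all 16 libraries, with a median of 20, and none exceeded 14 in 1 library. By type, 2 of 5 H1, 7 of 17 H2A, 4 of 18 H2B, 9 of 13 H3 and 7 of 15 H4 genes were too low. Together the 29 made up 1.04 and 2.55 CPM in parental cells and 1.79 to 3.40 CPM in transfected cells. H3C4 had 0 counts in every library, which allows up to 0.174 to 0.199 CPM per library, from counting error alone. That gene shares 486 exonic bases on its own strand with another annotated gene (ENSG00000282988), as does H2AC7 with 435 bases, and the recorded counting command did not ask for reads that fall on overlapping genes.

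Length in the annotation went with detection. Of 37 members with under 600 exonic bases, 13 were tested, against 26 of 31 with 600 or more. Their median levels were 0.244 and 2.42 CPM per kilobase (CPM/kb). Among the 23 members with a stem-loop match, the 16 whose model runs over 100 bases past the hairpin had a median of 1735 counts over 16 libraries, and the 7 others had 81. Of 27 small or other RNAs that carry no poly(A) tail, 26 had at most 10 counts in every library and 12 had none. The exception was RN7SL1, the signal recognition particle RNA, with 2093 to 5006 counts. The labels name total RNA as the molecule and do not say how messenger RNA was selected, so how much of each histone message the libraries could capture was not tested.

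**Figure D1:**
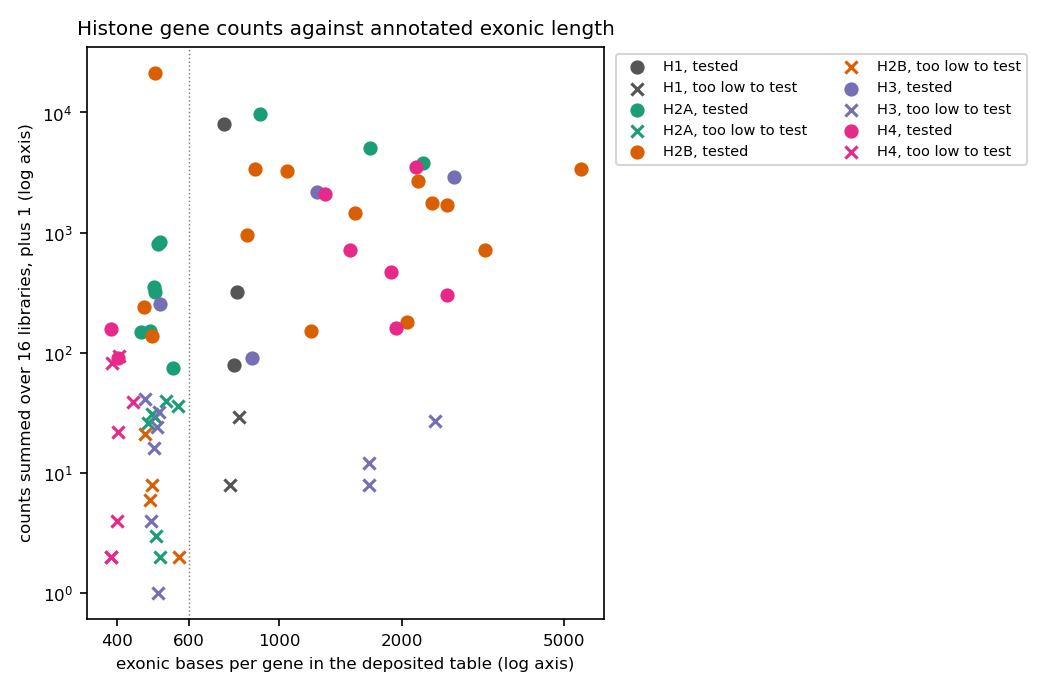
Each point is 1 of the 68 histone genes, placed by its exonic bases in the deposited table (log axis) and its counts summed over 16 libraries plus 1 (log axis), coloured by histone type. Circles are the 39 tested genes and crosses the 29 too low to test, of which 24 lie left of the dotted line at 600 bases; H2BC12 is the highest point despite 495 exonic bases.

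Per length, H2BC12 was by far the most abundant member, with a mean of 168 CPM/kb over all libraries. The linker histone gene H1-2 followed with 43.0 CPM/kb, and the H2A gene H2AC25 with 42.1. The next member, the H2B gene H2BC5, reached 15.3, and the H2A gene H2AC6 reached 11.9. The highest H3 genes were H3C10 at 6.82 and H3C6 at 4.21, and the highest H4 genes were H4C9 and H4C8 at 6.35 and 6.34, too close to rank. H1-4, the second H1 gene, reached 1.60. In parental cells H2BC12 alone held 28.2% of the members' summed CPM, H1-2 14.6% and H2AC25 11.8%.

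Summed over all 68 genes, counts were modestly higher in transfected cells, with H4 and H2B above and H1 below the parental level. The sum was 305 and 281 CPM in the 2 parental libraries and 314 to 354 CPM, with a median of 337, in the 14 transfected ones. The means differed 1.14-fold, and 1.33-fold with H2BC12 and H1-2 left out. The H4 sum was 20.5 and 15.97 CPM in parental cells and 27.2 to 34.8 CPM in transfected cells, a ratio of 1.75. The H2B sum was 134 and 130 CPM against 148 to 180 CPM, a ratio of 1.25. Neither type overlapped between parental and transfected libraries. The H1 sum went the other way without overlap, from 45.1 and 42.4 CPM to between 24.9 and 36.5 CPM, a ratio of 0.722. The H2A sums (82.3 and 72.1 CPM against 70.9 to 91.1 CPM) and the H3 sums (22.9 and 20.5 CPM against 19.1 to 24.4 CPM) overlapped, with ratios of 1.09 and 0.997. These sums are descriptions with no test. They take in reads over all annotated exons of a gene. The annotation is 1 exon block in 5 of 5 H1, 16 of 17 H2A, 12 of 18 H2B, 11 of 13 H3 and 11 of 15 H4 genes. H2BC6, H2BC15 and H2BC18 have 4 blocks each and H4C8 has 3, and which exons the reads came from was not tested.

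**Figure D2:**
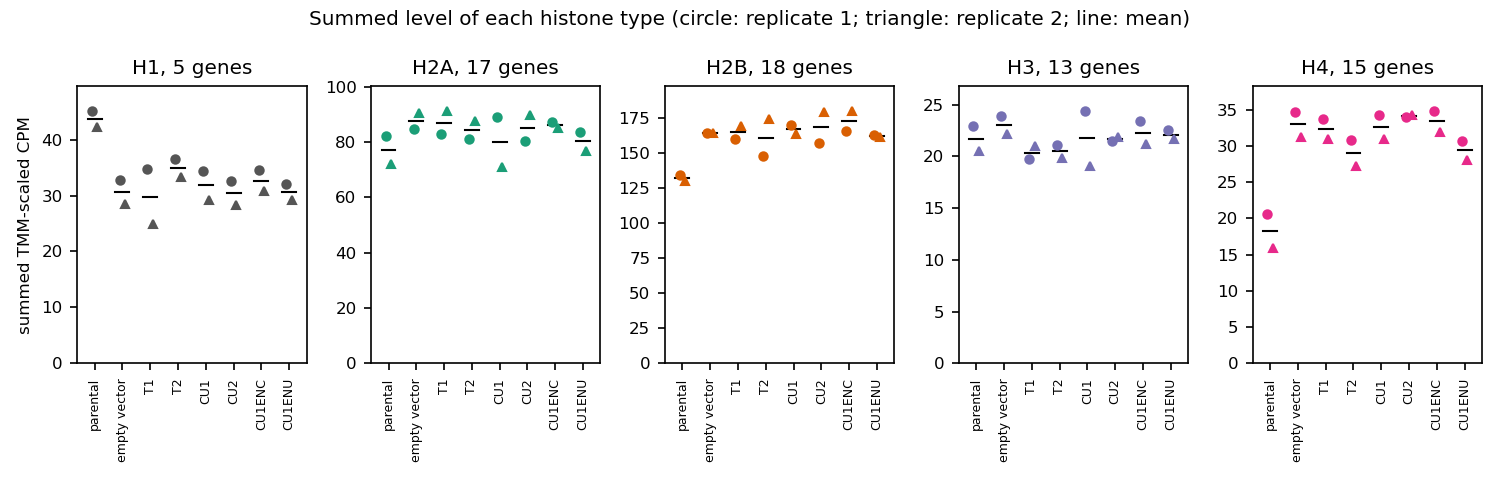
Summed TMM-scaled CPM of each histone type in every library, with the number of genes summed in the title; circles are replicate 1, triangles replicate 2 and lines the mean of the 2. The parental H4 and H2B sums lie below all 14 transfected libraries and the parental H1 sums above them, while H2A and H3 overlap.

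Empty plasmid against parental cells sets transfected cells without any LINC01016 transcript beside parental ones. Plasmid, reagent and handling cannot be told apart in it. Of 14 tested H2B genes 8 were higher in cells given the empty plasmid, as were 4 of 8 H4 genes, and the main linker histone gene H1-2 was lower. In edgeR's quasi-likelihood test with Benjamini-Hochberg adjustment, 14 of the 39 tested members rose and 1 fell, or 38.5% called, against 16% of all 19316 genes tested (9.41% higher, 6.6% lower). The members' median log2 fold change was 0.67, against 0.01 over all genes. Of the other types, 1 of 10 H2A, 1 of 4 H3 and 0 of 3 H1 genes rose. The fall was in H1-2, so 24 members did not pass. Of the rises, H2BC17 and H4C12 had at most 6 counts in either parental library. They passed the low-count filter only through transfected libraries. With the replicate number as a block, 18 rose and 3 fell, against 34.3% of all genes called, and each call made without the block was kept. Leaving out 1 library gave 7 rises without parental replicate 1 or parental replicate 2, 9 without empty vector replicate 1 and 8 without empty vector replicate 2, and 0 falls each time. H2BC18, H2BC26, H2BC5, H2BC8, H4C5 and H4C8 passed under all 9 alternatives run.

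**Figure D3:**
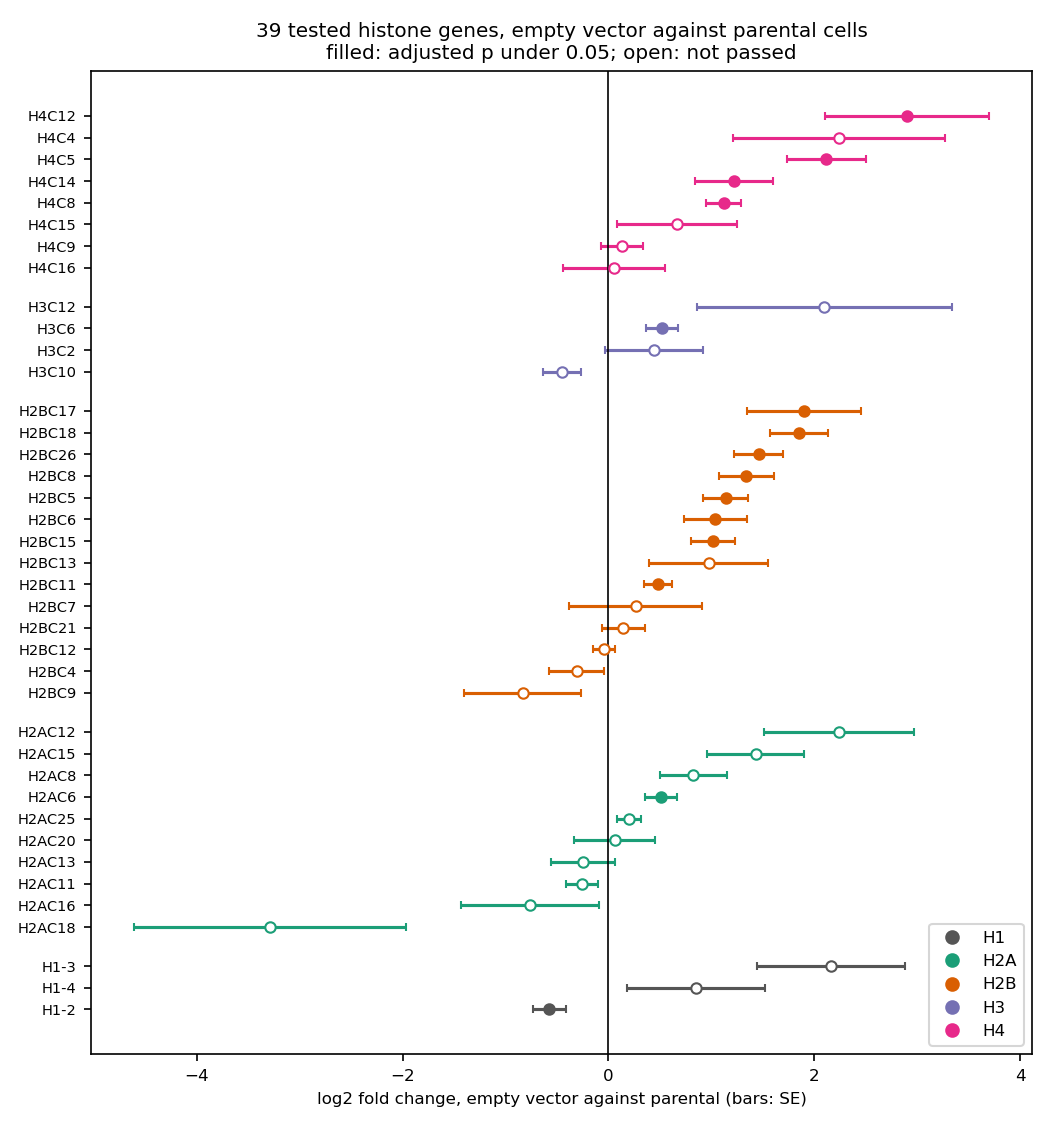
Log2 fold change of empty vector against parental cells for the 39 tested histone genes, grouped and coloured by type, with SE bars; filled points passed at an adjusted p under 0.05. Filled H2B and H4 points lie to the right of 0, up to 2.90 in H4C12, and H1-2 is the filled point to the left at -0.58.

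The H2B genes carried most of the calls. H2BC26 (ENSG00000196890, chromosome 1, 228458107 to 228460470, plus strand, 1 exon block of 2364 bases) was at 2.90 and 2.92 CPM in parental cells, 8.89 and 7.17 CPM with the empty plasmid, and 5.92 to 8.53 CPM (median 7.38) over the 12 LINC01016 libraries. Every transfected library was above both parental ones. Its log2 fold change for empty vector against parental was 1.46 ± 0.24 (SE, adjusted p = 0.00134, edgeR). H2BC8 (ENSG00000273802, chromosome 6, 26215159 to 26216692, minus strand) was at 2.37 and 2.44 CPM in parental cells, 7.11 and 5.06 CPM with the empty plasmid, and 5.29 to 7.40 CPM (median 5.93) with a transcript. It rose by 1.34 ± 0.27 (adjusted p = 0.00413, edgeR), again without overlap.

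H2BC18 gave the lowest adjusted p of the members. It was at 1.12 and 0.792 CPM in parental cells, 3.495 and 3.46 CPM with the empty plasmid, and 2.10 to 3.94 CPM (median 2.93) with a transcript. Its log2 change was 1.85 ± 0.28 (adjusted p = 0.000891, edgeR). Its exons lie opposite another gene over 177 bases, where the strand marking has to tell the reads apart. H2BC5, the second most abundant H2B gene per length, was at 8.17 and 5.91 CPM in parental cells and 17.2 and 13.8 CPM with the empty plasmid. Over the 12 transcript libraries it ran from 11.8 to 16.5 CPM (median 14.2), and its log2 change was 1.14 ± 0.22 (adjusted p = 0.00328, edgeR). The parental libraries were the lowest of all 16 for each of these 4 genes.

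The other 4 H2B rises were H2BC15, H2BC6, H2BC17 and H2BC11. H2BC15 was at 6.10 and 7.19 CPM in parental cells, 12.999 and 13.96 CPM with the empty plasmid and 10.7 to 19.3 CPM with a transcript. It rose by 1.02 ± 0.21 (adjusted p = 0.00552, edgeR), and it missed the threshold without parental replicate 1 (adjusted p = 0.0676). It shares 55 exonic bases on the same strand with H2AC16 and lies opposite H2AC15 over 496 bases. H2BC6 rose by 1.04 ± 0.30 (adjusted p = 0.0310), H2BC17 by 1.90 ± 0.55 from 5 and 6 parental counts (adjusted p = 0.0312) and H2BC11 by 0.48 ± 0.14 (adjusted p = 0.0271, all edgeR). Exons of H2BC6 lie opposite annotated exons of the other strand over 730 bases. H2BC6 passed in 1, H2BC17 in 1 and H2BC11 in 0 of the 4 fits that left out a library.

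The most abundant member did not share in this. H2BC12 (ENSG00000197903, chromosome 6, 27146361 to 27146855) was at 86.1 and 79.5 CPM in parental cells, 77.1 and 83.6 CPM with the empty plasmid and 73.8 to 93.8 CPM (median 82.8) with a transcript. The groups overlapped, and the log2 fold change was -0.04 ± 0.11 (95% interval -0.28 to 0.19, adjusted p = 0.827, edgeR). H2BC21 overlapped likewise, at 8.11 and 11.5 CPM in parental cells and 8.45 to 12.9 CPM over the 12 transcript libraries, with a log2 change of 0.15 (adjusted p = 0.686, edgeR).

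The 4 H4 genes that rose were H4C8, H4C5, H4C14 and H4C12. H4C8 (ENSG00000158406, chromosome 6, 26277609 to 26285638, minus strand) was at 7.75 and 5.85 CPM in parental cells, 16.8 and 12.8 CPM with the empty plasmid and 12.9 to 17.2 CPM (median 14.4) with a transcript. Its log2 change was 1.12 ± 0.17 (adjusted p = 0.000917, edgeR). H4C5 was at 1.07 and 0.488 CPM in parental cells (18 and 8 counts), 3.74 and 3.07 CPM with the empty plasmid and 1.63 to 4.15 CPM (median 3.21) with a transcript. It rose by 2.12 ± 0.38 (adjusted p = 0.00243, edgeR). Neither gene overlapped between parental and transfected cells.

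H4C14 rose by 1.22 ± 0.38 (adjusted p = 0.0401, edgeR), with 18 and 11 parental counts against 34 and 31, and the call was lost without any 1 of the 4 libraries. The promoter sequence of H4C14 is identical to that of H4C15, and whether reads could be assigned between these genes was not tested. H4C12 rested on few counts, 2 and 1 in parental cells against 7 and 16 with the empty plasmid. Its fitted log2 change was 2.90 ± 0.80 (adjusted p = 0.0239, edgeR), and the counts themselves gave a ratio of 7.998 with an exact 95% interval of 2.42 to 41.6 for counting error. The H4C12 call was kept without empty vector replicate 1 and lost in the other 3 fits that left out 1 library, where the log2 change ran from 2.16 to 3.39, and DESeq2 gave it no adjusted p. H4C9, the most abundant H4 gene per length together with H4C8, was at 7.75 and 7.62 CPM in parental cells and 7.73 and 9.09 CPM with the empty plasmid. Its log2 change was 0.13 (adjusted p = 0.719, edgeR). So of the 2 H4 genes that led per length over all libraries, 1 passed and 1 did not. That ranking includes the transfected libraries. In parental cells the mean was 6.80 CPM over 2163 exonic bases for H4C8 and 7.69 CPM over 1294 for H4C9. Whether their changes differ was not tested.

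H1-2 (ENSG00000187837, chromosome 6, 26055740 to 26056470, minus strand, 731 exonic bases) was the member that fell. It was at 44.1 and 41.7 CPM in parental cells, 31.0 and 26.6 CPM with the empty plasmid and 22.3 to 34.9 CPM (median 30.0) with a transcript. All 14 transfected libraries were below both parental ones. The log2 change was -0.58 ± 0.16 (adjusted p = 0.0282, edgeR), and it missed the threshold in each of the 4 fits without 1 library (highest adjusted p = 0.195). With the replicate block H1-2 was lower at an adjusted p of 2.4e-05 (edgeR). The other tested H1 genes, H1-4 and H1-3, did not pass. H1-4 had 11 and 8 counts in parental cells and 16 and 17 with the empty plasmid. H1-3, chosen for mention after its values were seen, had 3 and 1 against 8 and 10, and passed with the block (adjusted p = 0.0444, edgeR).

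Among the 10 tested H2A genes the 1 rise was H2AC6, which was at 15.6 and 14.1 CPM in parental cells, 21.6 and 20.6 CPM with the empty plasmid and 16.1 to 23.8 CPM (median 19.7) with a transcript. It rose by 0.51 ± 0.16 (adjusted p = 0.0385, edgeR). H2AC25, the most abundant H2A gene, was at 35.2 and 34.1 CPM in parental cells, 37.6 and 41.9 CPM with the empty plasmid and 32.1 to 43.4 CPM with a transcript. Its log2 change was 0.20 (adjusted p = 0.276, edgeR). With the replicate block, H2AC8 (adjusted p = 0.0155), H2AC12 (0.0302) and H2AC15 (0.0134) rose as well and H2AC18 fell (0.0106).

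Among H3 genes, which were the least measurable type, H3C6 rose and the others did not pass. H3C6 was at 9.47 and 8.59 CPM in parental cells and 13.5 and 12.4 CPM with the empty plasmid, a log2 change of 0.52 ± 0.16 (adjusted p = 0.0363, edgeR). The transcript libraries ran from 9.44 to 13.5 CPM and so overlapped the higher parental library. H3C6, H2AC6, H2BC11 and H4C14 each lost the call without any 1 of the 4 libraries. H3C10 was at 11.5 and 10.4 CPM in parental cells, 8.09 and 8.01 CPM with the empty plasmid and 6.57 to 9.63 CPM (median 8.06) with a transcript. It passed as lower with the block (adjusted p = 0.0451, edgeR) and not without it (0.115).

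**Figure D4:**
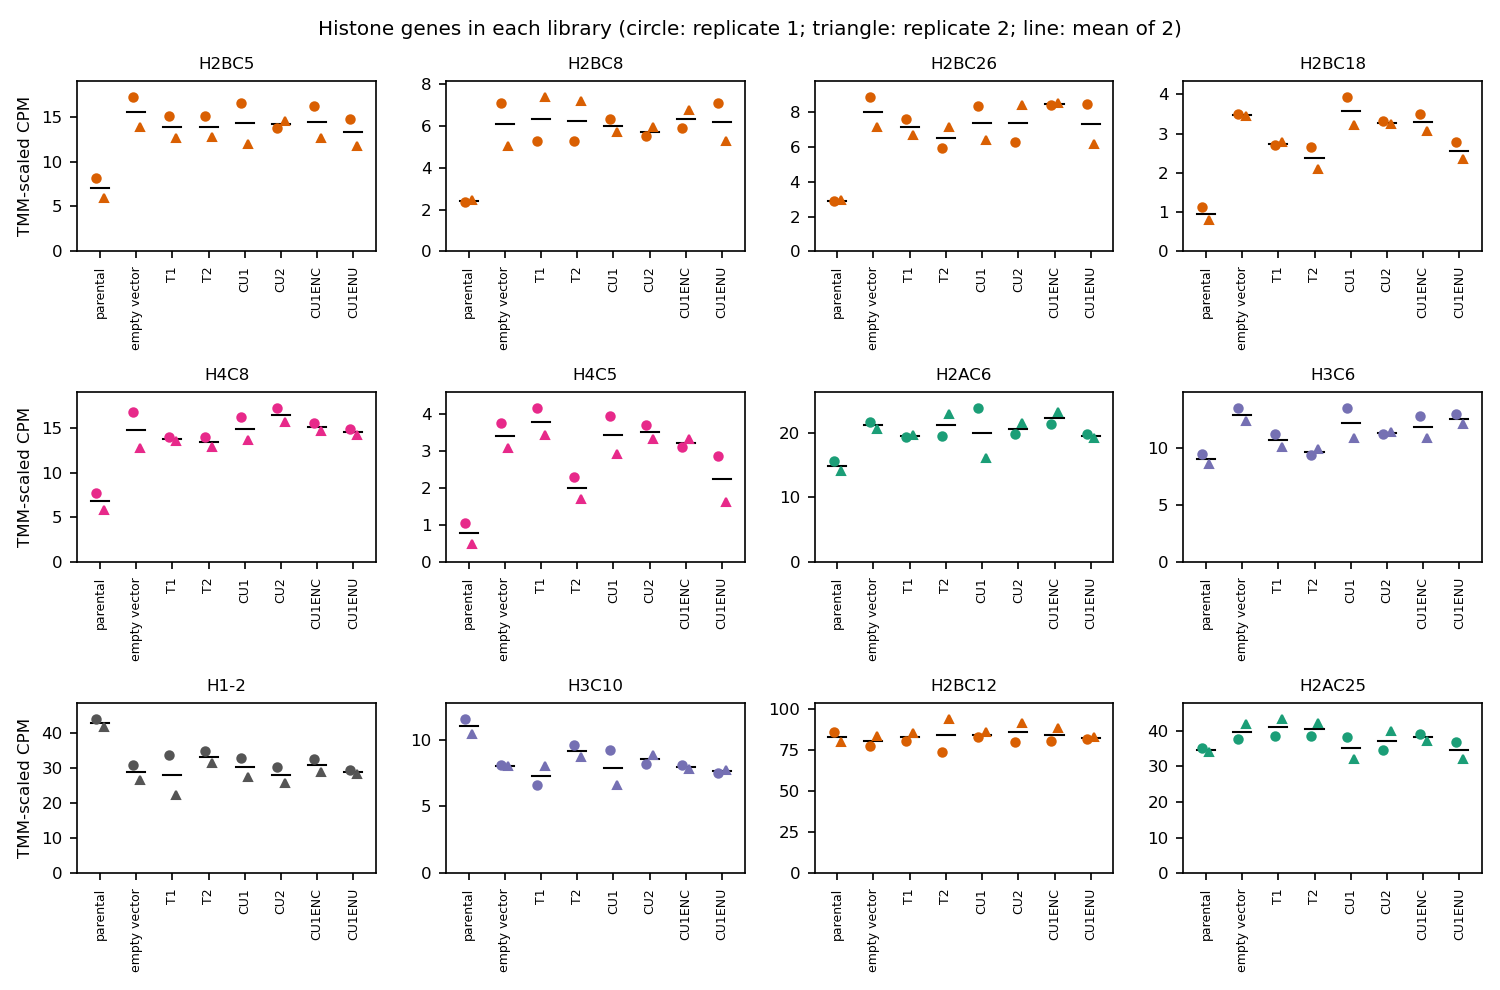
TMM-scaled CPM of 12 histone genes in every library (vertical axes start at 0); circles are replicate 1, triangles replicate 2 and lines the mean of the 2. The 2 parental libraries are the lowest in H2BC5, H2BC8, H2BC26, H2BC18, H4C8 and H4C5 and the highest in H1-2 and H3C10, and they sit among the others in H2BC12 and H2AC25.

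The mean of all 7 transfected groups against parental cells uses the same 2 parental libraries and includes the empty vector, so it is no separate evidence. In it 17 of 39 members rose and 3 fell, against 29.7% of all genes called (15.4% higher, 14.3% lower). H2AC12, H2AC15 and H4C4 joined the rises, and H2AC18 and H3C10 joined H1-2 among the falls. All 14 transfected libraries lay above both parental ones for 16 of 39 members (41.0%), against 16.8% of all tested genes, and below both for 3 (7.69%), against 14.9%. The calls of H2BC5, H2BC6, H2BC8, H2BC15, H2BC18, H2BC26, H4C5 and H4C8 held in all 16 fits that left out 1 library. Without parental replicate 1 there were 10 rises and 0 falls, and without parental replicate 2 there were 8 rises. The replicate block gave 20 rises and 3 falls, against 45.7% of all genes called, adding H2AC8 (adjusted p = 0.0259), H1-4 (0.0392) and H3C12 (0.0376) in edgeR.

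The falls and the added rises need their counts beside them. H1-2 was lower by a log2 change of -0.53 ± 0.12 (adjusted p = 0.00402, edgeR) and held without any 1 library other than parental replicate 1 (0.0625). H3C10 changed by -0.45 ± 0.13 (adjusted p = 0.0215, edgeR) and lost the call without parental replicate 1 or parental replicate 2. H2AC18 had 30 counts in parental replicate 1, 3 in parental replicate 2, 18 in 1 CU2 library and 0 to 4 in the other 13 libraries. Its log2 change was -2.86 ± 0.79 (adjusted p = 0.0147, edgeR), and without parental replicate 1 the adjusted p was 0.862. The last 549 bases of H2AC18 and H2AC19 transcripts are identical, as are the whole 1656-base transcripts of H3C14 and H3C15. Reads cannot be assigned between such copies, and their counts are uncertain. Transcripts of other members were not compared, among them those of H4C14 and H4C15, whose promoter sequences are identical. H4C4 went from 2 and 0 parental counts to 88 counts over 14 libraries, a ratio of 6.58 with an exact 95% counting interval of 1.77 to 55.2. The H4C4 call was lost with DESeq2 and in 6 of the 16 fits without 1 library, its log2 change being 5.62 without parental replicate 1 and 1.60 without parental replicate 2. H2AC12 went from 2 and 2 to 145 counts, a ratio of 5.42 (2.07 to 20.2). H2AC15 had 7 and 11 parental counts and 13 to 30 in the transfected libraries, and its log2 change ran from 0.97 to 1.66 over the alternatives run. All 496 of its exonic bases lie opposite H2BC15, where the strand marking has to tell the reads apart. H2BC15 had a mean of 13.3 CPM against 1.24 for H2AC15, so the H2AC15 rise may not be separate from that of H2BC15, which was not tested. H4C4 and H2AC12 passed the low-count filter only through transfected libraries, as did H2BC17 and H4C12. The same holds for H1-3 and H3C12, which were called only with the block. H2AC18 passed it through parental replicate 1 and the CU2 library. Such calls are no separate support for a change, since a gene low on both sides would not have been tested.

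H2A and H2B genes often sit back to back around a shared promoter, so neighbours give a comparison within each library. There were 11 such pairs with starts 215 to 283 bases apart, and in 7 both genes were tested. The log2 ratio of the 2 genes, from CPM plus 0.1, was compared between the 14 transfected and 2 parental libraries with an exact two-sided permutation test, whose smallest possible p is 0.0167. After Benjamini-Hochberg adjustment over the 7 pairs, 5 ratios differed. With libraries exchanged only within a replicate number (64 arrangements, smallest possible p 0.0312), the same 5 had an adjusted p of 0.0437. Before adjustment each of these 5 was at that smallest possible p. These pairs were set out after the fold changes of single genes were known, and the 14 libraries include 7 groups. The ratios use the same counts and the same 2 parental libraries as those fold changes, so they are no separate support for a change.

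The H2BC26 and H2AC25 pair has starts 234 bases apart across the sequence printed above for H2BC26. The log2 ratio of H2BC26 to H2AC25 was -3.56 and -3.50 in parental cells and -2.69 to -2.07 (median -2.32) in transfected cells, a difference of 1.19 (adjusted p = 0.0292, exact permutation test). H2BC26 was called higher and H2AC25 was not. In the H2BC11 and H2AC11 pair, the ratio of H2AC11 to H2BC11 was 0.57 and 0.87 in parental cells and -0.19 to 0.50 in transfected cells, a difference of -0.58 (adjusted p = 0.0292, exact permutation test). For H2BC4 and H2AC6, the ratio of H2AC6 to H2BC4 was 1.38 and 2.06 against 1.963 to 2.83, which overlapped, with a difference of 0.76 (adjusted p = 0.0467, exact permutation test).

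The other pairs rested on fewer counts or did not differ. H2AC13 over H2BC13 changed by -1.25 and H2AC12 over H2BC12 by 1.66 (each adjusted p = 0.0292, exact permutation test), with 7 and 3 parental counts of H2BC13 and 2 and 2 of H2AC12. Both H2BC13 and H2AC12 passed the low-count filter only through transfected libraries. H2AC8 over H2BC8 differed by -0.69 (adjusted p = 0.117) and H2AC20 over H2BC21 by -0.44 (0.167), neither past the threshold in the exact permutation test. The pair members named here beyond the rule for named genes were chosen by position.

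**Figure D5:**
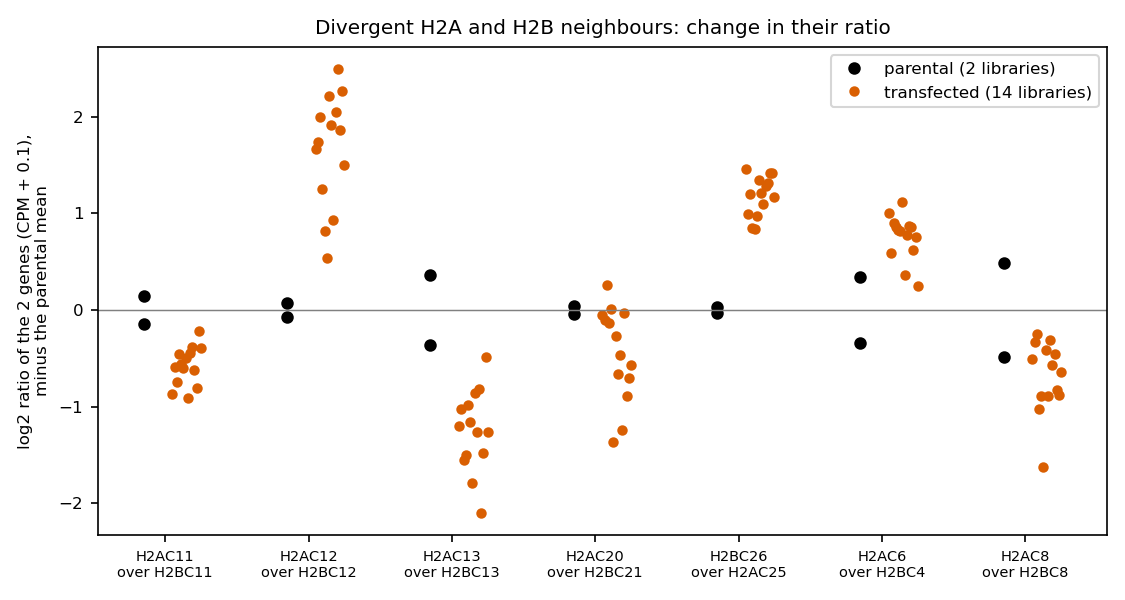
Log2 ratio of neighbouring H2A and H2B genes (CPM + 0.1) in each library, minus the mean of the 2 parental libraries, for the 7 pairs with both genes tested; black points are parental and orange points transfected libraries. For H2BC26 over H2AC25 all 14 transfected points lie above both parental points, and for H2AC11 over H2BC11 all lie below.

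The 6 LINC01016 transcripts were each compared with the empty plasmid, which carries the same vector and reagent. No histone gene passed in any of these comparisons, in the mean of the 6 or in the F-test of differences among them: 0 of 39 each by edgeR and 0 by DESeq2. The background was as low, with 0.0104% of genes called for T1, T2, CU1, CU1ENC, CU1ENU and the mean of the 6, 0.00518% for CU2 and 0.0% for the F-test. At an unadjusted p under 0.05, edgeR gave 3 members for T2, 1 each for CU1, CU1ENU and the mean of the 6, and 0 for T1, CU2, CU1ENC and the F-test. That is 7.69% of members for T2 against 2.32% of all genes, and 2.56% each for CU1, CU1ENU and the mean against 1.63%, 1.28% and 1.5% of all genes. For T1, CU2 and CU1ENC it is 0% of members against 1.09%, 1.23% and 0.916%. For T2 the 3 were H3C6 at -0.42 ± 0.16, H2AC8 at -0.82 ± 0.32 and H4C5 at -0.77 ± 0.34 on the log2 scale, each with an adjusted p of 1.00 (edgeR). H4C5 was at 2.28 and 1.71 CPM in T2 against 3.74 and 3.07 CPM with the empty plasmid and 1.07 and 0.488 CPM in parental cells. For CU1, CU1ENU and the mean of the 6 the gene was H1-3, which had 8 and 10 counts with the empty plasmid and 2 to 11 with a transcript.

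The members' median log2 change against the empty plasmid was -0.16 for T2, -0.10 for CU1ENU and between -0.04 and 0.01 for T1, CU1, CU2 and CU1ENC. These comparisons share the empty vector libraries. The 95% interval lay within a 2-fold change either way for 24 of 39 members with T1, 22 with CU1ENC, 21 each with CU1 and CU2, 19 with CU1ENU and 18 with T2. For the rest a 2-fold change lay inside the interval.

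A smaller share of histone genes than of all genes differed by replicate number. In the fit with group and replicate, 3 of 39 members were higher in replicate 2 and 5 lower, or 20.5%, against 35.9% of all genes. H2BC15 (0.26 ± 0.07), H2BC21 (0.22 ± 0.08) and H2BC12 (0.11 ± 0.04) were higher. H2AC18 (-1.90 ± 0.57), H2AC8 (-0.37 ± 0.13), H2BC5 (-0.29 ± 0.07), H1-2 (-0.22 ± 0.05) and H4C8 (-0.18 ± 0.07) were lower, all as log2 changes with adjusted p from 0.000996 to 0.0356 (edgeR). H2BC5 and H4C8 were each lower in replicate 2 in 7 and 8 of 8 groups. H1-2, H2BC5 and H2BC15 passed under all 12 alternatives run. Rises numbered 1 without T2 or without CU1ENC, and falls 2 without parental cells and 3 without CU1. Since each group holds both numbers, the number does not separate parental from transfected cells.

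Lists of known genes covered histone message processing, transcription, chaperones, DNA replication, replacement histones and RNAs without a poly(A) tail. Over all of them, 15 of 114 tested genes rose and 15 fell with the empty plasmid (26.3%, against 16% of all genes), and 5 of the falls were replacement histones. The replicate block gave 31 and 26 (50%, against 34.3%), and leaving out any 1 of the 4 parental and empty vector libraries gave 4 to 7 and 3 to 7. Of 30 genes for histone message processing, 6 rose and 1 fell with the empty plasmid (23.3%), with a median log2 change of 0.17, and 12 rose and 1 fell with the block (43.3%). The rises of lowest p were SRRT, a cap-binding complex partner (0.92 ± 0.13), ZNF473, the zinc finger protein of the U7 complex (0.46 ± 0.09), FIP1L1, a polyadenylation factor (0.45 ± 0.11), and CASP8AP2, which is needed for histone expression in S phase (0.28 ± 0.07). SNRPD3, a protein of the Sm ring, fell by 0.42 ± 0.12 on the log2 scale. SLBP, the hairpin-binding protein, was at 99.4 ± 1.36 CPM in parental and 89.5 ± 2.34 CPM in empty vector cells (SD, n = 2) and did not pass (log2 change -0.15, edgeR adjusted p = 0.194). LSM11 of the U7 complex (-0.17) and the trimming exonuclease ERI1 (0.24) did not pass either, although ERI1 did with the block (edgeR adjusted p = 0.0286).

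Of 17 tested transcription genes, 5 rose and 2 fell (41.2%, against 16% of all genes, median 0.12), and 7 and 3 with the block (58.8%, against 34.3%). POU2F2, an octamer-binding factor, rose by 1.19 ± 0.23 from 2.38 to 5.44 CPM, and HINFP, the factor for H4 promoters, rose by 0.48 ± 0.11. With the block, the other rises were CASP8AP2, CREBBP, EP300, GON4L and YY1, with log2 changes from 0.22 to 0.31. POU2F1, of the same family as POU2F2, did not pass with the block (-0.11, edgeR adjusted p = 0.289). NFYA, a subunit of the CCAAT-binding factor, fell by 0.52 ± 0.11, and CDK2, the kinase that activates NPAT, fell by 0.35 ± 0.09. NPAT, the coactivator of histone loci, did not pass (-0.17, edgeR adjusted p = 0.302). Of 25 chaperone genes, 3 rose and 2 fell (20%, median 0.01), near the share of all genes. With the block 8 rose and 8 fell (64%, against 34.3% of all genes). Without it, DAXX (0.84 ± 0.09), SUPT6H (0.42 ± 0.10) and CABIN1 (0.25 ± 0.08) were higher, and ASF1B (-0.36 ± 0.11) and RBBP4 (-0.35 ± 0.09) were lower.

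Genes of DNA replication as a list stayed near the background of 16%. Of 36 tested, 2 rose and 5 fell (19.4%), with a median of -0.02, and 6 and 8 with the block (38.9%, against 34.3% of all genes). CDT1, the origin licensing factor, rose by 0.56 ± 0.12 and MCM10 by 0.48 ± 0.12. RRM2, a subunit of ribonucleotide reductase, fell by 0.56 ± 0.09 and the thymidylate synthase gene TYMS by 0.38 ± 0.08. The sliding clamp gene PCNA fell by 0.35 ± 0.08 and LIG1 by 0.31 ± 0.08, and GINS4 was the other fall. Between replicate numbers, 20 of the 36 were higher in replicate 2 and 1 was lower (58.3%, against 35.9% of all genes).

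Replacement histone genes that passed were all lower. Of 11 tested, 0 rose and 5 fell (45.5%, against 6.6% of all genes lower), with a median log2 change of -0.23. With the block 6 fell (54.5%, against 15.9% of all genes lower). H2AZ2 fell by 0.63 ± 0.08, H3-3A by 0.53 ± 0.10, H2AX by 0.43 ± 0.13, H2AZ1 by 0.37 ± 0.10 and MACROH2A2 by 0.28 ± 0.09. H3-3A was at 425 ± 2.77 CPM in parental and 294 ± 28.1 CPM in empty vector cells (SD, n = 2). H3-3B, which encodes the same protein, was at 686 ± 15.1 and 742 ± 17.6 CPM and did not pass (0.11, edgeR adjusted p = 0.411). RN7SL1, the 1 tested gene among those without a poly(A) tail, did not pass (0.29 ± 0.29).

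Transcript structure and response were set side by side as counts. The split at 100 bases was set after seeing the data. Of the 14 tested members whose model runs over 100 bases past a stem-loop, 8 rose with the empty plasmid. Of the 4 tested with 100 bases or fewer after it, 0 rose, and of the 20 with no match, 6 rose and 1 fell. Of all genes 9.41% rose. Over the 7 transfected groups, 8 of the 14, 0 of the 4 and 9 of the 20 rose, against 15.4% of all genes. There 1 member of each class fell. Among members with under 600 exonic bases 2 of 13 rose with the empty plasmid, and among the longer ones 12 of 26 rose and 1 fell. The median log2 change in that comparison was nevertheless 0.82 in the short and 0.59 in the long members. The short members have fewer counts, and whether message form or precision goes with the calls was not tested. Of 4 members listed from general knowledge as having polyadenylated forms, 2 rose and 0 fell.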

How the data were processed

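The deposited values are raw counts of reads per gene. Per the file headers, the authors made them with featureCounts 2.0.1, paired and with strand option 2, over Ensembl 101 exons grouped by gene, with no option for multi-mapping or overlapping reads. Per the submitters' processing notes, HISAT2, DESeq2 and GRCh38.p13 were used. Groups and replicate numbers come from the titles. Symbols were matched by identifier, and H2AC18 and H2AC19 through older names.

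Counts were tested with edgeR 4.0.16 (R 4.3.3) over all 16 libraries: filterByExpr (minimum count 10, total 15) left 19316 genes, TMM factors ran from 0.974 to 1.03, and robust quasi-likelihood F-tests used 8 group means (8 residual degrees of freedom) with Benjamini-Hochberg adjusted p under 0.05. CPM are TMM-scaled. SE is the absolute log2 fold change over the square root of F, and 95% intervals use it with the t distribution on the test's degrees of freedom. Groups of 2 cannot give an exact permutation p below 0.333. Replicates of a group differed by more than sampling noise, and no label says they were separate cultures, so p-values measure the spread between these libraries. Deviations from the group means correlated between libraries of the same number in each of 28 pairs of groups (r 0.162 to 0.442, median 0.248), so numbers pair the libraries, a pairing that comes from the data, and blocked values are printed where they change a call of a named gene or a count.

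Alternatives were DESeq2 1.42.0, its size factors in edgeR, no filter, the replicate block, only the compared libraries, and each library left out. Where 1 library was left in a group, it was assumed to vary like the others. The fit was tested on simulated data. Named genes are members passing in any comparison, the 2 most abundant per length of each type, and from each list up to 4 passing genes of lowest p each way plus 9 fixed ones, of which 1 is not reported here. Members and lists were chosen with earlier results of these data known. The pair test, its exchange of libraries within replicate numbers and the split at 100 bases after the stem-loop were added after seeing the data. Promoters are from RefSeq, GRCh38.p14, and matched 63 members.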

Additional observations from a re-analysis of the deposited data

How the results depend on the processing

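With 2 libraries a group, counts of calls depend on single libraries and low counts limit 29 members. For empty vector against parental cells, leaving out 1 library gave 7 to 9 rises and 0 falls, and 2 members fell with no low-count filter and 3 with the replicate block. For the 7 transfected groups, leaving out parental replicate 1 or 2 gave 10 and 8 rises, and 0 falls without parental replicate 1; over all such fits there were 8 to 18 rises and 0 to 3 falls. For replicate 2 against replicate 1, rises numbered 1 with DESeq2, without the T2 group or without the CU1ENC group, and falls 2 with DESeq2, with only transfected groups or without the parental group, and 3 with no filter or without the CU1 group. In the lists, 15 rises and 15 falls became 31 and 26 with the replicate block, and 4 to 7 and 3 to 7 without 1 library. The log2 change of H2BC12 ran from -0.113 to 0.0162 over fits without 1 library for empty vector against parental cells, and for the 7 transfected groups it was -0.00093 with no filter, and it ran from -0.0568 to 0.0507 over fits without 1 library. H2BC21 turned to -0.106 and -0.131 without parental replicate 1, and was 0.407 and 0.383 without parental replicate 2. None of these reversals passed in any fit. In the pairs, 5 ratios differed with a pseudocount of 0.1 or 0.5, and 5 with libraries exchanged within a replicate number. The cause of these changes was not tested. Beside the calls given with the replicate block in the text, the block changed no other call of a member against parental cells or empty vector. The isoform comparisons gave 0 members under every alternative.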
